A study of Mus musculus with 12 samples.

Results

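The genes described here copy the genome and supply its building blocks. They are 46 genes taken by symbol, and each was found on 1 row of the 35453 rows of the mRNA table. They were divided by role into origin recognition and licensing (11 genes), helicase activation (6), the sliding clamp and its loader (6), polymerases and primase (8), single-strand binding and Okazaki fragment joining (5), nucleotide synthesis (5), chromatin copying (3) and cyclin E (2). The tumours formed from 4T1 cells, a metastatic mouse mammary carcinoma line, in mice of strain Balb/c and were collected 35 days after inoculation. Mice of the stress group underwent restraint lasting 2 hours daily over 28 consecutive days; the control mice bore the same tumour and were untreated. Whole tumours gave 3 mRNA and 3 miRNA libraries per group. The labels do not say whether the libraries of a group stem from different mice, so p-values measure the spread between these libraries, which may be technical. Values of single libraries are given in the order of replicates 1 to 3.

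Before DNA can be copied, the origin recognition complex, Cdc6 and Cdt1 load the ring of Mcm2 to Mcm7 onto origins, a step called licensing that takes place in G1. Cyclin E with its kinase, Cdc45 and the GINS complex then turn the ring into an active helicase, and polymerases held by the Pcna clamp copy both strands. Ribonucleotide reductase, thymidylate synthase and thymidine kinase feed the forks with deoxynucleotides. Transcription of most of these genes is switched on by E2F factors as cells enter S phase, so in bulk tissue their mRNA is often read as a measure of how many cells are cycling. In bulk libraries fewer cycling cells and less mRNA per cycling cell cannot be told apart.

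All mRNA values are used as the authors deposited them and are taken as log2 values, with base 2 assumed because the transform is not stated. Differences are stress minus control on that scale, and the percentages given for genes rest on that assumption. The values of the 6 mRNA libraries, taken as powers of 2, summed to between 1.69e+07 and 1.77e+07, and the median of the 14098 genes tested lay between 8.91 and 8.92 in every library. The read depth behind them is unknown. The 9 epithelial markers were all measured above the filter, with a mean log2 value of 10.64 to 10.78 in control and 10.55 to 10.84 in stressed tumours. All 46 replication genes passed the filter, a mean log2 value of at least 4.

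Replication genes were lower in the stressed tumours almost throughout, by a small amount. Of the 46 genes, 44 had a lower mean in stress and 2 a higher one, with a median difference of -0.20 and a range from -0.47 to 0.04. Over all 14098 genes tested 49.4% were lower and the median difference was 0.0014. No replication gene passed an adjusted p of 0.05 (limma, Benjamini-Hochberg over all genes tested), a level that 0.0355% of all genes passed, 0.0142% on the lower and 0.0213% on the higher side. At an unadjusted p of 0.05, 30 of the 46 genes were lower and 0 higher, against 9.15% of all genes on the lower and 8.26% on the higher side. The 3 stress libraries lay below all 3 controls for 36 of the 46 genes, against 12.3% of all genes, and above them for 0, against 12.1%. The members of this pathway vary together, so the 46 genes are not 46 separate observations of the tumours.

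**Figure D1:**
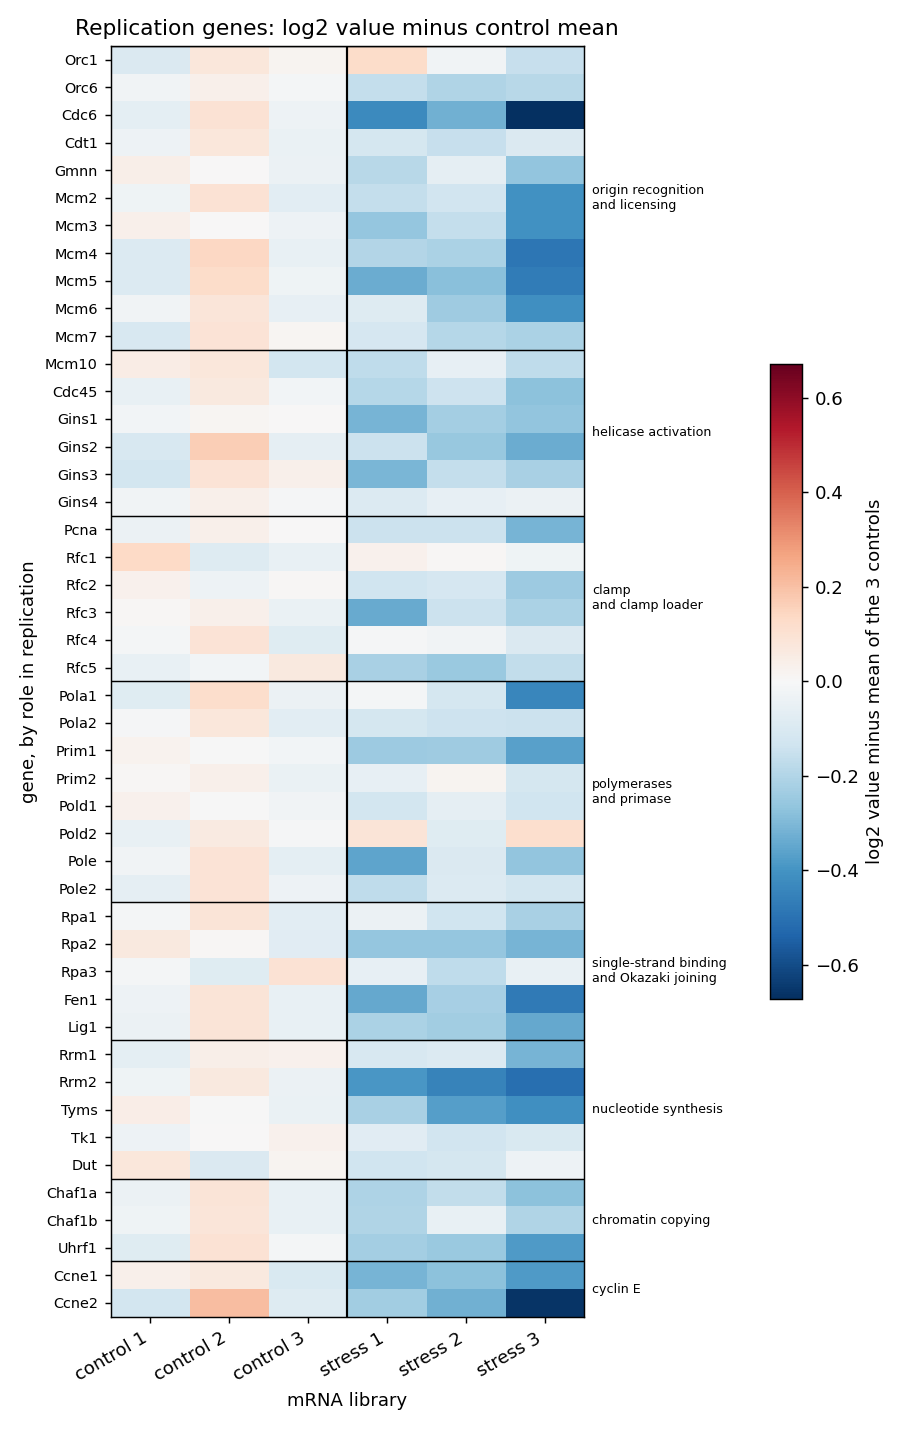
Each row is a gene, grouped by role, and each column an mRNA library; the colour gives the log2 value minus the mean of the 3 controls. Blue (lower) fills most of the stress columns, and stress replicate 3 is the lowest of the 6 libraries for 31 of the 46 genes.

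The libraries did not move equally. Relative to the control mean, the median over the 46 genes was -0.17 in stress replicate 1, -0.15 in stress replicate 2 and -0.26 in stress replicate 3. In the controls it was -0.0270, 0.0711 and -0.0398 for replicates 1 to 3. Stress replicate 3 held the lowest value of all 6 libraries for 31 genes and control replicate 2 the highest for 32. Without stress replicate 3 the median difference was -0.16 with 43 genes lower, and without control replicate 2 it was -0.17 with 43 genes lower. Among the genes given by library, the differences of Mcm2 (-0.23) and Rrm1 (-0.17) were -0.14 and -0.10 without stress replicate 3.

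Promoter windows of the genes are shown because E2F factors are the best known activators of this set. RefSeq windows on GRCm38.p6, reaching from 250 bases before to 50 after the gene start, were matched by symbol for 37 of the 46 genes; those of Ccne2, Gins1, Gins2, Gins4, Gmnn, Mcm4, Pole, Prim2 and Rfc2 were not matched. Any of the letters TTTCCCGC, TTTCGCGC, TTTGCCGC or TTTGGCGC, E2F-like and searched on both strands, stood in the windows of 14 of the 37 genes (37.8%), against 704 of 27025 genes with a window (2.6%). The 14 were Cdc6, Cdt1, Gins3, Lig1, Mcm3, Mcm5, Mcm6, Mcm7, Orc1, Pola1, Pold1, Pole2, Rfc3 and Uhrf1. A CCAAT box, CCAAT on either strand, stood in 23 of the 37 (62.2%, against 41.1% of all), and the cell cycle homology-like TTTGAA in 5 (13.5%, against 20.2%). The comparison genes were not matched for base composition, and a match is not evidence that a factor binds. The stretches that follow lie before the RefSeq start; those of Cdc6 and Uhrf1 fall in an intron of the GENCODE gene, which starts farther upstream. They are shown with the E2F-like letters in capitals, and a CCAAT box in capitals for Rrm2, whose window held no E2F-like letters:
Cdc6, chr11:98907983-98908050, plus strand: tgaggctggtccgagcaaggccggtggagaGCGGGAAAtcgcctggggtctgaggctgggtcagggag
Mcm5, chr8:75109326-75109397, plus strand: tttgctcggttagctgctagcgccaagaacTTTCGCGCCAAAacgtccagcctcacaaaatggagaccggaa
Mcm6, chr1:128359715-128359845, minus strand: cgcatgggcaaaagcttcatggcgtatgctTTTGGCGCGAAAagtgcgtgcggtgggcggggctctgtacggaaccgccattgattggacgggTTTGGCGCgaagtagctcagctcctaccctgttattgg
Uhrf1, chr17:56304098-56304165, plus strand: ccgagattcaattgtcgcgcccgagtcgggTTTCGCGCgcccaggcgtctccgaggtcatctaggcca
Pola1, chrX:93632256-93632323, minus strand: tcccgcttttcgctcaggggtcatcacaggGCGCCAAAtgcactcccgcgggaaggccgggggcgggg
Rrm2, chr12:24708174-24708238, plus strand: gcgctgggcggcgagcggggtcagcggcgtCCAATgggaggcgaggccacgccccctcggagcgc

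In Mcm5 and Mcm6 the capital run of 12 bases holds a pair of overlapping E2F-like matches, 1 on each strand. Mcm6 holds a further match closer to the start. The median difference was -0.23 for the 14 genes with the E2F-like letters, from -0.47 (Cdc6) to -0.02 (Orc1), and -0.18 for the other 23 genes, from -0.45 (Rrm2) to 0.04 (Pold2). The ranges overlapped almost completely, and no test of this difference was made.

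Origin recognition and licensing genes were lower in all 11 cases, with a median difference of -0.23. The groups did not overlap in 10, against 12.3% of all genes on the lower side. Cdc6, the ATPase that helps the origin recognition complex to load the Mcm ring, had the most negative difference of the 46 genes in the values as deposited. Its log2 values were 9.29, 9.45 and 9.32 in control tumours and 8.93, 9.03 and 8.68 in stressed tumours. All stress libraries were below all controls, with stress replicate 3 lowest. The difference was -0.47 ± 0.10 (SE, n = 3 per group), 28.0% lower in stress, with an adjusted p of 0.115. Rrm2, described with the nucleotide genes, was the more negative of the pair after quantile normalization (-0.48 against -0.47 for Cdc6), without stress replicate 3 (-0.42 against -0.38) and with a muscle (-0.41 against -0.33), fibroblast (-0.39 against -0.33) or neutrophil marker covariate (-0.39 against -0.20). Cdt1, the other loading factor, stood at 10.04, 10.15 and 10.03 in control and at 9.95, 9.92 and 9.97 in stress. Its groups were close but separate, and the difference was -0.12 ± 0.05 (adjusted p = 0.292). Geminin, Gmnn, binds Cdt1 and blocks a further round of loading. It measured 8.41, 8.37 and 8.33 in control and 8.18, 8.31 and 8.10 in stress, a difference of -0.17 ± 0.07 (adjusted p = 0.273). The log2 ratio of Cdt1 to Gmnn was 1.70 ± 0.0735 (SD, n = 3) in control and 1.75 ± 0.130 in stress, and the groups overlapped.

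The 6 genes of the Mcm ring were all lower, by -0.36 (Mcm5), -0.30 (Mcm4), -0.28 (Mcm3), -0.25 (Mcm6), -0.23 (Mcm2) and -0.17 (Mcm7), with standard errors of 0.0635 to 0.0961 and adjusted p of 0.116 to 0.243. Mcm2, a subunit that also carries histones, read 10.96, 11.08 and 10.91 in control and 10.82, 10.86 and 10.57 in stress. Mcm7 read 11.32, 11.52 and 11.44 in control and 11.31, 11.23 and 11.21 in stress; control replicate 1 and stress replicate 1 nearly met. Each gap between neighbours in this order was smaller than the standard errors, so the order was not resolved. Among the origin recognition subunits, Orc6 was lower by 0.18 (-0.18 ± 0.05, adjusted p = 0.159) with separate groups. Orc1, the ATPase subunit that varies over the cell cycle, differed by -0.02 ± 0.09 (adjusted p = 0.944), and stress replicate 1 was its highest library.

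Helicase activation genes were lower in all 6 cases, with a median difference of -0.22. Groups were separate in 5, against 12.3% of all genes. Gins1 encodes a subunit of GINS, which joins Cdc45 and the Mcm ring in the active helicase. Its values were 7.63, 7.66 and 7.65 in control and 7.34, 7.42 and 7.39 in stress, tight within each group and well apart. The difference was -0.27 ± 0.06, 17.0% lower, with an adjusted p of 0.120. Gins2 (-0.25), Gins3 (-0.23) and Cdc45 (-0.20) had adjusted p of 0.174 to 0.222. Mcm10, which helps to start unwinding, was at -0.13 ± 0.07 (adjusted p = 0.388) and Gins4 at -0.06 ± 0.05 (adjusted p = 0.554). The exons of Gins2 overlap those of Gse1, and the counting was not stated to use strand.

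**Figure D2:**
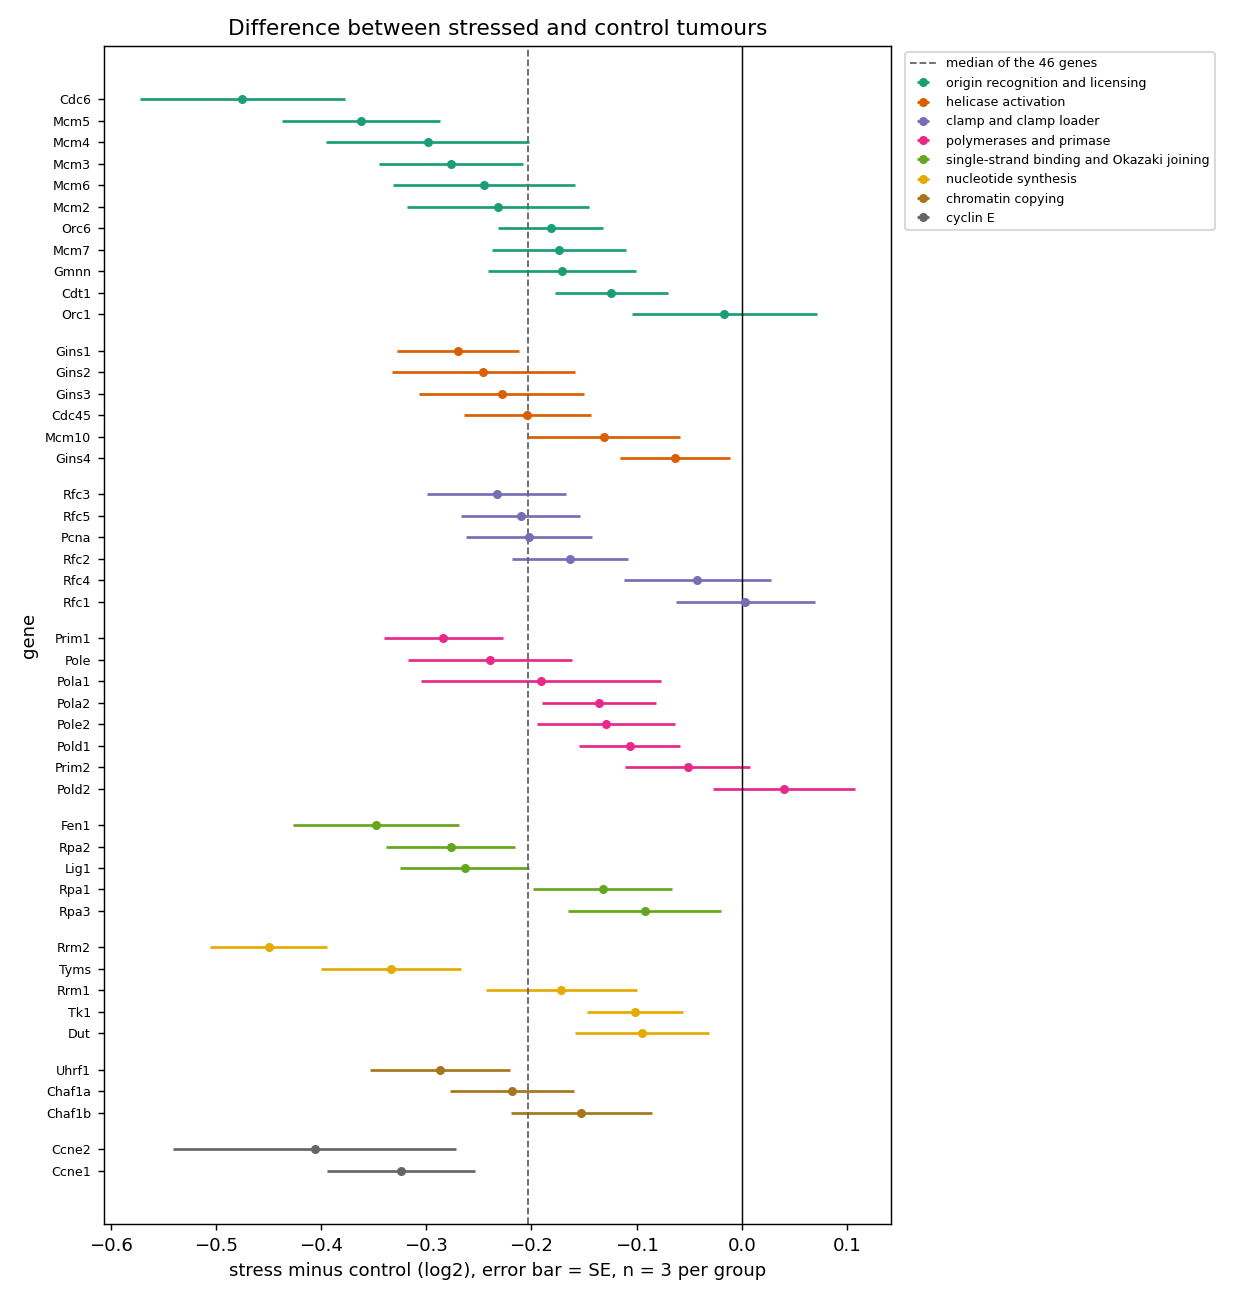
Points give the log2 difference between stressed and control tumours for each gene, coloured by role, with the standard error as a bar; the dashed line is the median of the 46 genes, -0.20. Only Rfc1 and Pold2 lie to the right of 0, and Cdc6 and Rrm2 lie farthest to the left.

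The clamp and 3 of the 5 loader genes were lower with separate groups, against 12.3% of all genes. Pcna, the ring that tethers the polymerases and recruits repair and chromatin factors, had log2 values of 11.29, 11.36 and 11.33 in control and 11.18, 11.18 and 11.01 in stress. All stress values were below all controls, and the difference was -0.20 ± 0.06 (adjusted p = 0.176). The clamp loader opens this ring. Its small subunit genes Rfc3 and Rfc5 differed by -0.23 ± 0.07 (adjusted p = 0.165) and -0.21 ± 0.06 (adjusted p = 0.154). Rfc3 read 9.27, 9.30 and 9.22 in control and 8.92, 9.12 and 9.05 in stress, and Rfc5 read 9.44, 9.47 and 9.56 in control and 9.27, 9.24 and 9.33 in stress. Rfc2 was lower with separate groups as well (-0.16, adjusted p = 0.210). Rfc4 (-0.04, adjusted p = 0.789) and Rfc1 had overlapping groups. Rfc1, the large subunit, was at 10.94, 10.72 and 10.76 in control and 10.83, 10.81 and 10.78 in stress. Its difference was 0.0034 ± 0.07 (adjusted p = 0.985), and its sign turned after quantile normalization (-0.03), with the muscle (-0.05) or fibroblast (-0.10) marker mean as a covariate, and without control replicate 2 (-0.04), control replicate 3 (-0.02) or stress replicate 1 (-0.0094). Pcna has the pseudogene copies Pcna-ps1 and Pcna-ps2 on rows of their own, and reads of such copies cannot be divided with certainty.

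Of the 8 polymerase and primase genes 7 were lower, with a median of -0.13, and 5 had separate groups, against 12.3% of all genes. Prim1, the catalytic subunit of primase, which lays the RNA primers, had the smallest p of them. It read 9.64, 9.62 and 9.60 in control and 9.38, 9.38 and 9.25 in stress. The groups lay far apart relative to their spread, with a difference of -0.28 ± 0.06, 17.9% lower (adjusted p = 0.111). Its partner Prim2 differed by -0.05 ± 0.06 (adjusted p = 0.686). The leading-strand polymerase gene Pole was at -0.24 ± 0.08 (adjusted p = 0.202) and its partner Pole2 at -0.13 ± 0.07 (adjusted p = 0.355). Pola1, the catalytic subunit of the priming polymerase, was at -0.19 ± 0.11 with overlapping groups (adjusted p = 0.421), and Pola2 at -0.14 ± 0.05 (adjusted p = 0.263). The lagging-strand polymerase gene Pold1 was at -0.11 ± 0.05 (adjusted p = 0.311). Its accessory subunit Pold2 was the only member besides Rfc1 with a higher mean in stress. Pold2 read 9.64, 9.75 and 9.68 in control and 9.77, 9.61 and 9.80 in stress, so that stress libraries held both its lowest and its highest value, and the difference of 0.04 ± 0.07 had an adjusted p of 0.795; with a neutrophil marker covariate its sign turned (-0.08).

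Single-strand binding and Okazaki joining genes were lower in all 5 cases, with a median of -0.26. Groups were separate in 3, against 12.3% of all genes. Fen1, the nuclease that trims the flaps of Okazaki fragments, stood at 9.32, 9.44 and 9.30 in control and at 9.01, 9.14 and 8.88 in stress. The difference was -0.35 ± 0.08, 21.4% lower (adjusted p = 0.126). Its exons overlap those of Tmem258 and an antisense transcript. Lig1, the ligase that seals the fragments, was at -0.26 ± 0.06 (adjusted p = 0.129). Of the subunits of the single-strand binding protein RPA, Rpa2 read 8.63, 8.58 and 8.49 in control and 8.31, 8.31 and 8.25 in stress, a difference of -0.28 ± 0.06 (adjusted p = 0.120) with separate groups. Rpa1 (-0.13, adjusted p = 0.350) and Rpa3 (-0.09, adjusted p = 0.538) had overlapping groups.

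Nucleotide synthesis genes were lower in all 5 cases, with a median difference of -0.17. Groups were separate in 4, against 12.3% of all genes. This role held the smallest p of the 46 genes. Rrm2 encodes the small subunit of ribonucleotide reductase, which makes deoxynucleotides and is produced mainly in S phase. Its log2 values were 10.59, 10.68 and 10.57 in control tumours and 10.23, 10.17 and 10.11 in stressed tumours. The stress values lay below every control by several times the spread within either group. The difference was -0.45 ± 0.06 (SE, n = 3 per group), 26.8% lower, with an adjusted p of 0.0647. Rrm2 alone of the 46 genes had an adjusted p under 0.1, a level that 0.674% of all genes passed, 0.34% on the lower and 0.333% on the higher side. That level was lost without control replicate 2 (adjusted p = 0.115), control replicate 3 (0.308), stress replicate 1 (0.180), stress replicate 2 (0.113) or stress replicate 3 (0.144), while the difference ran from -0.48 to -0.42 in these fits.

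**Figure D3:**
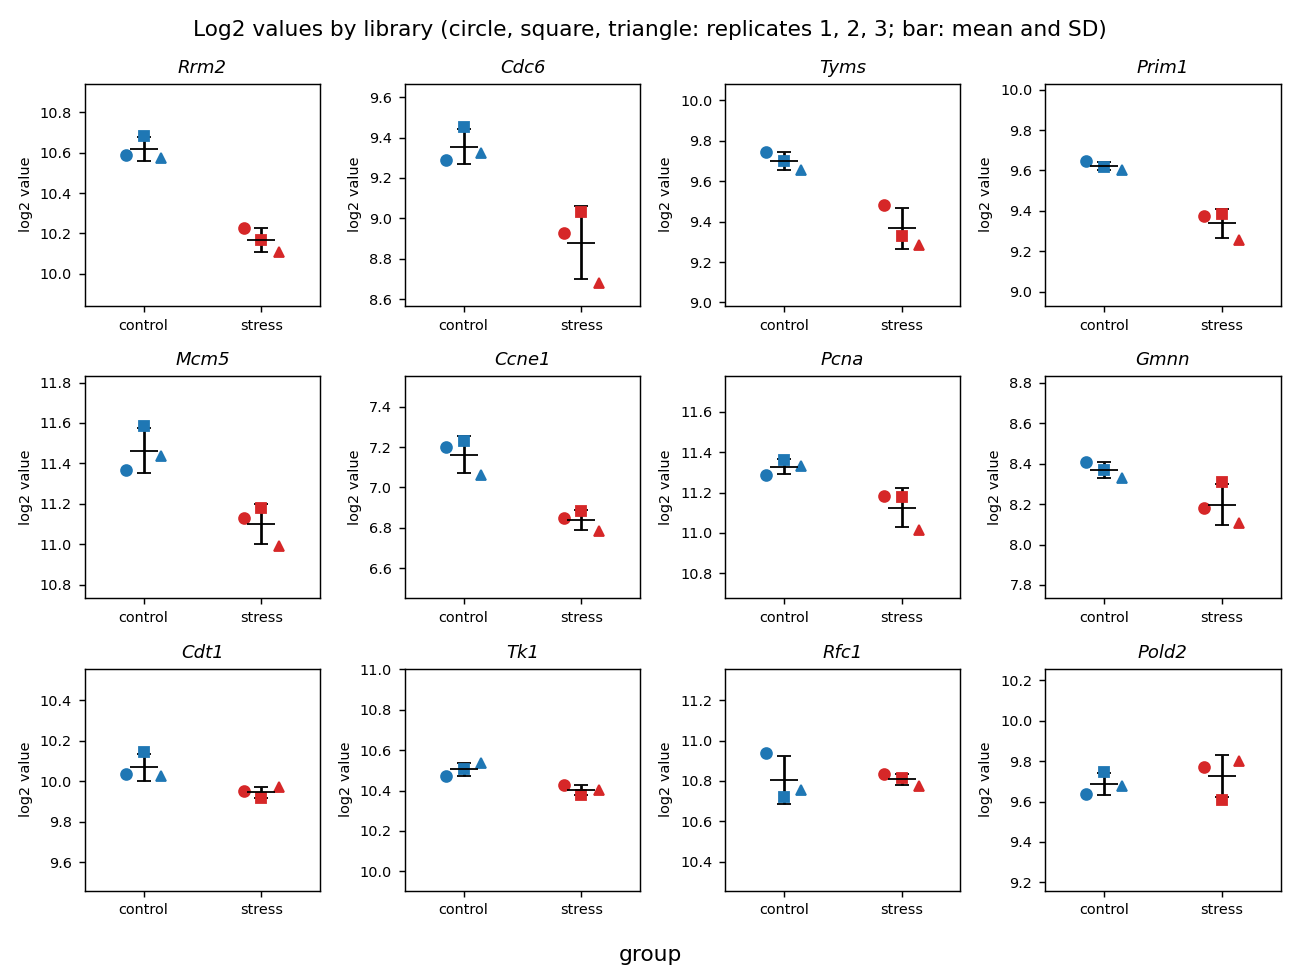
Log2 values of 12 of the genes in each mRNA library, with the mean and SD of each group (n = 3) as black bars; every panel spans the same range on the log2 axis. Rrm2, Cdc6, Tyms and Prim1 show separate groups, while Rfc1 and Pold2 overlap.

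Rrm1, the large subunit of the same enzyme, read 11.27, 11.38 and 11.37 in control and 11.23, 11.25 and 11.03 in stress, a difference of -0.17 ± 0.07 (adjusted p = 0.279). The log2 ratio of Rrm2 to Rrm1 was -0.68, -0.69 and -0.80 in control and -1.01, -1.08 and -0.92 in stress, so that all stress libraries were below all controls. Tyms, thymidylate synthase, stood at 9.74, 9.70 and 9.66 in control and at 9.48, 9.33 and 9.29 in stress, a difference of -0.33 ± 0.07, 20.7% lower (adjusted p = 0.111). A pseudogene, Tyms-ps, has a row of its own. The salvage enzyme thymidine kinase, Tk1, read 10.47, 10.51 and 10.54 in control and 10.43, 10.38 and 10.40 in stress. Its groups were separate but close, at -0.10 ± 0.05 (adjusted p = 0.307). Dut, which removes dUTP so that uracil does not enter DNA, was at -0.09 ± 0.06 with overlapping groups (adjusted p = 0.470).

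Partner genes of the same enzyme or complex were also compared within each library. Among 8 pairs of partners chosen after values were seen, the log2 ratio separated the groups in 2. These were Rrm2 to Rrm1 and Prim1 to Prim2, the latter 0.512 ± 0.0337 (SD, n = 3) in control and 0.279 ± 0.0359 in stress. Ratios of Cdt1 to Gmnn, Ccne2 to Ccne1, Pola1 to Pola2, Pold1 to Pold2, Pole to Pole2 and Chaf1a to Chaf1b overlapped between groups. With 3 libraries against 3, values that do not differ between groups separate in either direction with a probability of 0.1. Among single genes in these libraries the observed share was larger, 12.3% on the lower and 12.1% on the higher side. The share of other gene pairs with separate ratios was not computed. No test was made on these ratios, because the pairs were chosen with their values in view.

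Chromatin copying genes were lower in all 3 cases with separate groups, against 12.3% of all genes. Uhrf1, which guides the maintenance DNA methyltransferase to newly copied DNA, read 11.29, 11.47 and 11.35 in control and 11.14, 11.12 and 10.99 in stress, a difference of -0.29 ± 0.07 (adjusted p = 0.129). The chromatin assembly factor genes Chaf1a and Chaf1b, which place histones behind the fork, were at -0.22 ± 0.06 (adjusted p = 0.154) and -0.15 ± 0.07 (adjusted p = 0.300). The exons of Chaf1a overlap those of Ubxn6.

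Both cyclin E genes, whose kinase drives entry into S phase, were lower with separate groups, against 12.3% of all genes. Ccne1 read 7.20, 7.23 and 7.06 in control and 6.85, 6.89 and 6.78 in stress, a difference of -0.32 ± 0.07, 20.1% lower (adjusted p = 0.120). Ccne2 read 8.60, 8.93 and 8.63 in control and 8.49, 8.40 and 8.06 in stress. Its difference of -0.41 ± 0.13 (adjusted p = 0.203) rested on wider groups, with control replicate 2 high and stress replicate 3 low.

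Outside the 46 genes, 80 further genes of the same pathways were examined: 64 were lower and 16 higher, with a median of -0.10. No gene passed an adjusted p of 0.05 (limma), and 25 were lower and 0 higher at an unadjusted p of 0.05, against 9.15% and 8.26% of all genes. The groups were separate on the lower side in 34 and on the higher side in 0, against 12.3% and 12.1% of all genes. Among 15 other origin and firing genes 12 were lower (median -0.13), led by Dbf4, the activator of the Cdc7 kinase (-0.26 ± 0.05, adjusted p = 0.104), Topbp1 (-0.23, adjusted p = 0.107), cyclin A2, Ccna2 (-0.31, adjusted p = 0.111), and its kinase Cdk2 (-0.23, adjusted p = 0.115). Orc3 was highest on the other side (0.06 higher, adjusted p = 0.618). All 8 genes that control licensing through protein degradation had a lower mean, unequally (median -0.12, from -0.30 to -0.0032), and 5 had separate groups. Those with the smallest p were Skp2 (-0.23, adjusted p = 0.129), Fzr1 (-0.22, adjusted p = 0.135), Fbxo5 (-0.30, adjusted p = 0.180) and Fbxw7 (-0.12, adjusted p = 0.355).

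Among 19 other fork genes 16 were lower (median -0.10). Tipin, of the fork protection complex, read 9.66, 9.74 and 9.61 in control and 9.34, 9.34 and 9.27 in stress. It was the 1 gene of the 80 with an adjusted p under 0.1 (-0.35 ± 0.06, adjusted p = 0.0947). Tipin lost that level without a filter on low values (limma adjusted p = 0.125), with the replicate number as a block (0.178) and with each marker covariate (0.476 to 0.516). The level was also lost without any single library (0.108 to 0.308). With a filter at a mean of 6, Dbf4, Topbp1, Ccna2, Cdk2 and Nme1 were also under 0.1 (0.0886 to 0.0987). Atad5, which unloads Pcna (-0.25, adjusted p = 0.147), topoisomerase Top2a (-0.20, adjusted p = 0.154) and the checkpoint adaptor claspin, Clspn (-0.37, adjusted p = 0.171), came next. The polymerase subunit gene Pold4 was 0.23 ± 0.12 higher with overlapping groups (adjusted p = 0.367), and 9.42 in stress replicate 3 was far above its other libraries, which lay between 8.89 and 9.06.

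Of 30 other nucleotide genes 21 were lower, with a median of -0.07. Among those with the smallest p were Nme1, a nucleoside diphosphate kinase (-0.30, adjusted p = 0.115), Ctps, which makes CTP (-0.19, adjusted p = 0.165), and the mitochondrial serine hydroxymethyltransferase Shmt2 (-0.22, adjusted p = 0.171). On the other side stood Dguok, a mitochondrial deoxyguanosine kinase (0.21 ± 0.09 higher, adjusted p = 0.302). Rrm2b, the alternative small subunit of ribonucleotide reductase that works outside S phase, was named after its values were seen; it read 9.25, 9.17 and 9.12 in control and 9.24, 9.22 and 9.05 in stress (difference -0.0093, adjusted p = 0.962). Of 8 other chromatin copying genes 7 were lower (median -0.11), including the histone chaperones Nasp (-0.30, adjusted p = 0.120) and Asf1b (-0.25, adjusted p = 0.154), the remodeller Hells (-0.30 ± 0.13, adjusted p = 0.309) and the histone-binding Rbbp7 (-0.11, adjusted p = 0.330); Rbbp4 was at 0.0065 (adjusted p = 0.960), with a sign that turned under several alternatives.

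**Figure D4:**
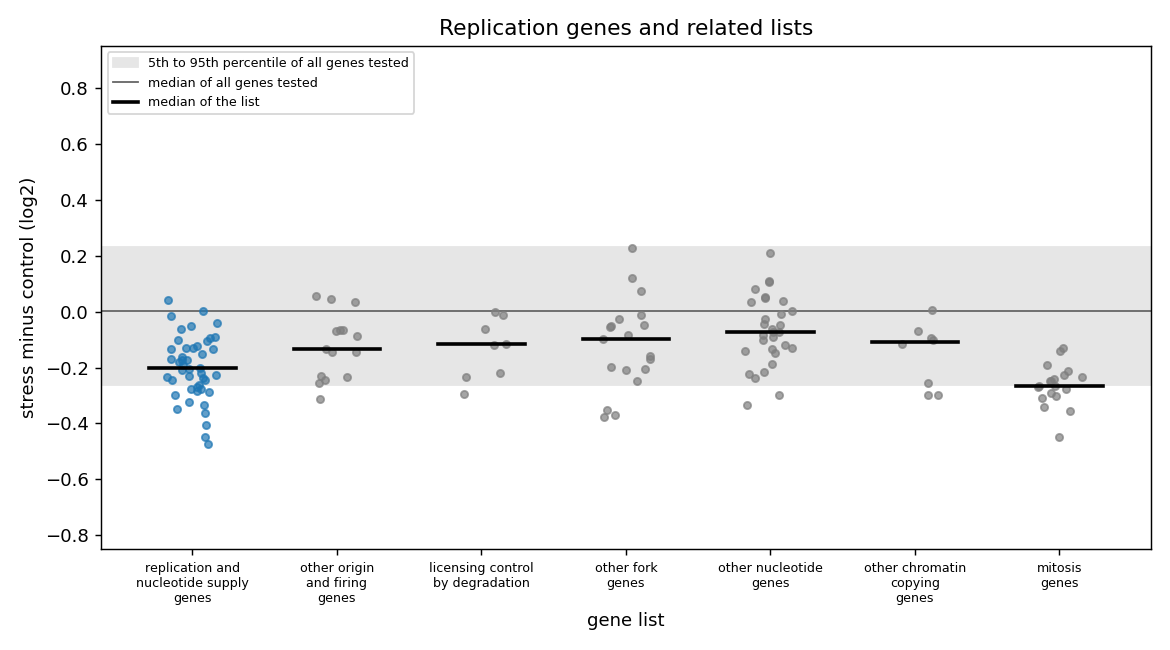
Each point is a gene, placed by its log2 difference between stressed and control tumours; black lines are list medians and the grey band spans the 5th to the 95th percentile of all genes tested, -0.26 to 0.23. The 46 replication genes (median -0.20) and the mitosis genes (median -0.27) lie mostly below 0, the other pathway lists closer to it.

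Mitosis genes, the nearest other group of cell cycle genes, were set beside them: 19 of 19 were lower with a median of -0.27, and 14 had separate groups, against 12.3% of all genes. Of the 19, 2 had a limma adjusted p under 0.1, against 0.34% of all genes on the lower side. At an unadjusted limma p of 0.05, 16 of the 19 were lower, against 9.15% of all genes. Whether the 2 groups of genes differed was not tested.

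Marker genes of other cell types were read in the same libraries. Neutrophil markers (7 listed, 6 tested, 5 of them higher) had a mean log2 value of 6.35 to 6.52 in control and 6.60 to 7.23 in stress. Endothelial markers (7 of 7 lower) lay at 9.55 to 9.74 in control and 9.25 to 9.46 in stress, without overlap between the groups. Fibroblast markers (8 of 9 lower) lay at 11.35 to 12.12 and 11.15 to 11.41, and skeletal muscle markers (10 of 10 lower) at 8.67 to 10.01 and 7.69 to 9.06. Both overlapped between groups, as did the 7 macrophage markers (11.30 to 11.39 and 11.11 to 11.55) and the 8 T and NK cell markers (5.84 to 6.19 and 5.84 to 6.12). The 6 adipocyte markers, 2 of them tested, had means of 4.59 to 5.13 and 4.40 to 4.61, and the 4 B cell markers, all under the filter, 3.03 to 3.09 and 3.02 to 3.04. No marker of any list was listed at 0. Ly6g, the neutrophil marker under the filter, read -0.10 to -0.05 over the libraries and was included in the neutrophil means. With the mean of a marker list as a covariate, the median difference of the 46 replication genes was -0.15 for muscle (44 genes lower), -0.13 for fibroblasts (43 lower) and -0.11 for neutrophils (41 lower). Single genes moved unequally in these fits. With the neutrophil covariate the difference was -0.0029 for Mcm2, -0.0094 for Rrm1, -0.03 for Gmnn, -0.08 for Pcna, -0.11 for Ccne2, -0.14 for Fen1, -0.16 for Uhrf1 and -0.20 for Cdc6, all more than 1.5 times nearer to 0 than without it. With the muscle covariate that held for Rrm1 (-0.05), Mcm7 (-0.10), Mcm2 (-0.12), Pcna (-0.12) and Ccne2 (-0.22), and with the fibroblast covariate for Mcm7 (-0.06), Rrm1 (-0.07), Mcm2 (-0.12), Pcna (-0.13), Ccne2 (-0.17) and Uhrf1 (-0.17). In all 3 fits Rrm2 (-0.41 to -0.39) and Tyms (-0.34 to -0.31) stayed close to their values without a covariate. Neutrophil marker means did not overlap between the groups, so the fit with them cannot tell that covariate from stress. Endothelial marker means did not overlap either, and no fit was made with them as a covariate. The fits rest on 3 libraries a group, and the part of other cells in the result was not tested.

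Mcm7 is also the host of a miRNA cluster, which was measured in the miRNA libraries. The gene lies on the minus strand of chromosome 5 (138164583 to 138172422, GRCm38), and miR-106b, miR-93 and miR-25 lie in intron 13 of its transcript of 15 exons. An exon of a shorter Mcm7 transcript that retains introns covers miR-93 and miR-25. The seeds of these mature miRNAs, bases 2 to 8, pair with target mRNAs and are in capitals here (RefSeq, GRCm38.p6):
miR-106b-5p, chr5:138165787-138165807: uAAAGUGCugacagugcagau
miR-93-5p, chr5:138165574-138165596: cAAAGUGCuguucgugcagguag
miR-25-3p, chr5:138165332-138165353: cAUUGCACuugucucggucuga
miR-106b-3p, chr5:138165746-138165767: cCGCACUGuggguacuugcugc

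Here miR-106b-5p and miR-93-5p share the seed AAAGUGC, and miR-25-3p and miR-106b-3p each have a different one. Levels of the miRNAs are CPM, counts scaled to the library size after TMM normalization, from libraries of 1738056 to 3202224 counts. The level of miR-25-3p stood at 3988, 3322 and 3611 CPM in control tumours and 5350, 4929 and 5339 CPM in stressed tumours, with all stress libraries above all controls. It was 1.43-fold higher in stress (log2 difference 0.52, edgeR adjusted p = 0.138). It passed 0.05 with DESeq2 (adjusted p = 0.0114), without the filter on low counts (edgeR adjusted p = 0.0345) and without control replicate 1 (0.0208). The level of miR-93-5p was 1809, 1584 and 1835 in control and 2129, 1951 and 2307 in stress, 1.22-fold higher with separate groups (edgeR adjusted p = 0.247). The share of all miRNAs with separate groups was not counted, so this separation has no reference. At an unadjusted edgeR p of 0.05, 23.8% of the miRNAs tested passed. The level of miR-106b-5p was 720, 639 and 876 in control and 796, 848 and 856 in stress, 1.12-fold higher (adjusted p = 0.585), and that of miR-106b-3p was 1219, 908 and 827 in control and 1273, 1179 and 1114 in stress, 1.21-fold higher (adjusted p = 0.393). The groups of both overlapped. The passenger strands miR-25-5p and miR-93-3p had 15 to 41 reads a library, with fold changes of 0.835 and 0.959 (adjusted p = 0.608 and 0.911).

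**Figure D5:**
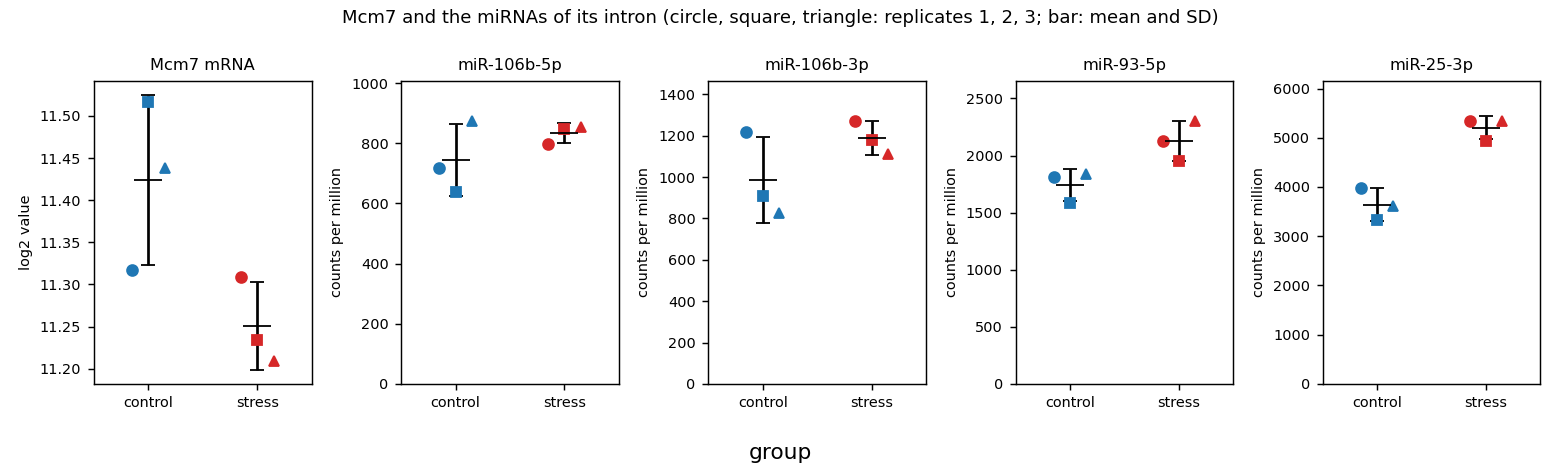
The left panel gives the log2 value of Mcm7 mRNA, on an axis that does not start at 0, and the others the CPM of 4 mature miRNAs from its intron; points are libraries and black bars the mean and SD (n = 3). Mcm7 is lower in stress by 0.17 on the log2 scale (-0.17), and the stress libraries of miR-25-3p and miR-93-5p lie above all controls. How many other miRNAs had separate groups was not counted. None of these differences passed an adjusted p of 0.05 (limma for Mcm7, edgeR for the miRNAs).

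None of the 6 mature miRNAs of the cluster passed an adjusted p of 0.05 in the edgeR test, and 0% of the 462 miRNAs tested did; 1 of the 6, miR-25-3p, had an unadjusted p under 0.05, against 23.8% of all. The host mRNA was lower and the abundant strands of its miRNAs higher in stress, but neither passed its test. How many of the 462 miRNAs had separate groups was not counted. No label ties an mRNA library to the miRNA library of the same number.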

How the data were processed

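The mRNA table is deposited under a name that says raw counts, but its entries are fractional and run from -1.97 to 17.85. They are taken here as log2 values after normalization by the authors. The transform and the base are not stated; base 2 was assumed. The spread between libraries shrinks at low levels (median range 0.0773 at a mean of 2 to 3, 0.262 at 9 to 10), so differences of weakly expressed genes may be understated. Tools named in the submitters' processing notes are kallisto 0.46.1 and bcl2fastq, with build mm10. The deposited miRNA table holds read counts, 1 row for each pair of mature miRNA and precursor, by a tool not given in the sources used here. Each of 1978 mature miRNAs was used once, on its row with most reads.

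Of 35453 mRNA rows, 12658 at 0 in all libraries and 26 with a date for a symbol were left out. limma 3.58.1 (R 4.3.3; lmFit, eBayes with trend and robust estimation) compared stress with control over 14098 genes with a mean of at least 4. The miRNA counts were tested with edgeR 4.0.16 (TMM, filterByExpr, robust quasi-likelihood) over 462 miRNAs, with DESeq2 1.42.0 as an alternative. Tests were two-sided, with Benjamini-Hochberg adjustment across all features tested and calls at 0.05. Both fits were also run on simulated data. The outcome is not given here, so how often differences of the size seen would be called is not stated. Lists are described by counts and medians. Coordinates are from GENCODE M21 (GRCm38, the assembly of mm10) and sequences from RefSeq. Exons of 16 of the 46 genes overlap those of another gene.

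Values per library were printed for members with an adjusted p under 0.1, the smallest p and largest difference of each role, a sign opposite to the median, and a set taken in every case (Cdc6, Cdt1, Gmnn, Mcm2, Mcm7, Pcna, Rrm1, Rrm2, Tyms, Tk1, Ccne1, Ccne2); in the other pathway lists, the 4 smallest p and the largest difference of opposite sign were named. The result of 1 gene of these lists is not reported here. The members, lists and tests were chosen with earlier results of these data known.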

Additional observations from a re-analysis of the deposited data

How the results depend on the processing

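No replication gene passed an adjusted p of 0.05 in any of the 16 alternative fits, and 41 to 45 of the 46 genes were lower in each fit that could change this. The number with an adjusted p under 0.1 was 5 with a filter at a mean of 6, 2 after quantile normalization, and 0 with a muscle, fibroblast or neutrophil covariate; leaving out single libraries gave 0 to 1. The median difference moved beyond the spread between libraries with a covariate from the muscle (-0.148), fibroblast (-0.128) or neutrophil markers (-0.107), the last 2 chosen after seeing the data; without single libraries it ran from -0.23 to -0.16. Signs turned with the neutrophil covariate for Hells (0.09), Pold2 (-0.08) and Pold4 (-0.09), none of them called. Without stress replicate 1 that of miR-93-3p turned (0.08). Fits without a variance trend or without robust estimation gave 1 gene under 0.1. Of the 6 miRNAs of the Mcm7 intron 1 was called with DESeq2, 1 without a filter on low counts, and 0 to 1 without single libraries.

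With the replicate number as a block, 0 replication genes had an adjusted p under 0.1 and 0 of the 6 miRNAs were called. The deviations of mRNA libraries with the same number correlated at -0.0790, 0.0815 and -0.0183, and those of miRNA libraries at -0.483, 0.314 and -0.130. Correlations between libraries of different numbers were not set beside these, so whether the numbers mark pairs cannot be told. The read depth behind the mRNA values is unknown, and 3 libraries a group limit what a difference of this size can show.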
